A study of Homo sapiens with 6 samples.

Results

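MMP1, MMP3, MMP10 and MMP12 are 4 matrix metalloproteinase genes that lie next to each other on the long arm of chromosome 11. They were taken from the deposited count table by gene name, and all 4 are among its 2778 features. They were picked because their counts differed between the groups compared here, so their differences between those groups are given as a description with no test. RNA-seq libraries were made from A375, an established line of human melanoma cells, 6 in all: 3 of cells that overexpress CYGB, the gene of the haem protein cytoglobin (CYGB-OE), and 3 of wildtype cells (WT). Both groups were grown untreated in serum-containing DMEM. The sources used here do not say how the overexpressing cells were made, whether they are a single clone or whether a vector control was used. Nor do the labels tie replicates to separate cultures, so the spread within a group may be technical.

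Matrix metalloproteinases are zinc-dependent proteases that cut proteins of the extracellular matrix. Most are secreted as inactive proenzymes, in which a cysteine of the propeptide blocks the catalytic zinc, and other proteases such as plasmin remove the propeptide. The TIMP proteins inhibit the active enzymes. The genes of this cluster are transcribed at low levels in resting cells, and growth factors, cytokines and phorbol esters raise them, in large part through AP-1 factors of the FOS and JUN families. In melanoma, collagenase activity is studied for its part in invasion of the dermis.

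The table's column totals, 1533260 to 1897052 counts in CYGB-OE and 2025159 to 2801576 in WT, are sums over selected features and not library depths. The log2 ratios of group means left an empty band, and the groups were set equal at its middle. By that choice no feature lay within 0.995 log2 units of the level. If features were selected at equal folds in both directions, statements below concern features that differ about 2-fold or more. Whether they were is not known. CYGB itself had 22518, 20740 and 26267 counts in CYGB-OE libraries 1 to 3, against 33, 47 and 37 in WT libraries 1 to 3, which matches the labels. Replicate 1 of CYGB-OE was unlike its fellow libraries: the median absolute log2 difference per feature was 0.428 to replicate 2 and 0.444 to replicate 3. That between replicates 2 and 3 was 0.181, and WT pairs had 0.171 to 0.184. For some of the genes that rest on that library, but not for all, the fold change is also given without it. A normalized count is a count divided by the scaling factor of its library, and fold changes are on the log2 scale of the edgeR fit. Each SE is the absolute log2 fold change divided by the square root of the F statistic of its edgeR test.

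The 4 genes span 105 kb of chromosome 11 in GRCh38, all on the minus strand, in the order MMP10, MMP1, MMP3 and MMP12 from low to high coordinate. MMP10 (ENSG00000166670) is annotated at chr11:102770503-102780628. MMP1 (ENSG00000196611) is at chr11:102789920-102798160. MMP3 (ENSG00000149968) is at chr11:102835801-102843803, and MMP12 (ENSG00000262406) at chr11:102862736-102875034. Among the 4 members, MMP10 matched an entry in the RefSeq promoter table (GRCh38.p14); MMP1, MMP3 and MMP12 did not. Only the MMP10 promoter is therefore shown. The window runs from 250 bases before the annotated start to 50 bases from it, at chr11:102780579-102780878 on the minus strand, and reads 5′ to 3′ as follows.

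MMP10 promoter: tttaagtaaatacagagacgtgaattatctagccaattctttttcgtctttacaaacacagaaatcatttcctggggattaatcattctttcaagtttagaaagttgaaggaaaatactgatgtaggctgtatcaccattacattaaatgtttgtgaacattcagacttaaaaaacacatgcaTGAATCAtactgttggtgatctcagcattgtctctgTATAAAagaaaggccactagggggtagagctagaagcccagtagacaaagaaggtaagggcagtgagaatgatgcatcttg

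Capitals mark a match to the AP-1 motif TGANTCA, searched on both strands, and a match to the TATA box TATAAA, searched on the strand shown. The AP-1 match starts at position -67 and the TATA match at position -31, counting the base before the annotated start as position -1. Of 35116 promoters of the same length, 7.71% hold TGANTCA and 7.33% hold TATAAA. The more specific AP-1 letters TGAGTCA had 0 matches in this window and the ETS motif AGGAAG had 0; 4.95% and 33.6% of all promoters hold them. The shorter ETS core GGAA had 2 matches, at positions -182 and -141, and 95.5% of all promoters hold it. The matches found in the MMP10 window do not overlap. As motifs, TGAGTCA is a form of TGANTCA and GGAA is part of AGGAAG. The letters say nothing about whether a factor binds there.

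MMP1 was the most abundant member in both groups. MMP1 encodes interstitial collagenase, which cuts the triple helix of fibrillar collagens. It had 3101, 3927 and 4943 counts in CYGB-OE libraries 1 to 3, against 170, 259 and 191 in WT libraries 1 to 3. As normalized counts these were 3308, 4385 and 4492 in CYGB-OE and 187, 205 and 203 in WT. The lowest CYGB-OE library was 16.2 times the highest WT library. The mean was 4062 ± 655 normalized counts in CYGB-OE and 198 ± 9.79 in WT (SD, n = 3 each), a log2 fold change of 4.36 (SE 0.15). In bulk RNA, more cells that express a gene and more RNA per cell cannot be told apart.

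MMP3 encodes stromelysin 1, which cuts proteoglycans, laminin and fibronectin and can activate other metalloproteinases, MMP1 among them. It was nearly silent in WT, with 1, 4 and 0 counts in replicates 1 to 3, against 101, 157 and 196 counts in CYGB-OE replicates 1 to 3. Normalized, CYGB-OE libraries held 108, 175 and 178, and WT libraries held 1.1, 3.16 and 0. The WT library with 0 counts allows a normalized count of up to 3.19, the level of 3 counts. The groups were far apart, and the fitted log2 fold change was 6.49 (SE 0.51). That SE, derived from the F statistic, does not bound the error at such low WT counts. With 5 counts in all WT libraries together, the ratio of summed counts, 96.4, has a 95% interval of 41.0 to 298 from counting error alone (exact Clopper-Pearson). It rests on WT replicate 2, without which WT held 1 count and the ratio was 286 (95% interval 51.1 to 11335).

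MMP10 encodes stromelysin 2, a close relative of MMP3 that cuts a similar range of matrix proteins. It had 1206, 239 and 284 counts in CYGB-OE libraries 1 to 3, against 14, 23 and 11 in WT libraries 1 to 3. Its normalized counts were 1286, 267 and 258 in CYGB-OE and 15.4, 18.2 and 11.7 in WT. The groups did not overlap: the lowest CYGB-OE library was 14.2 times the highest WT library. Within CYGB-OE, replicate 1 was far above replicates 2 and 3, and the SD, 591, was nearly as large as the mean, 604. The log2 fold change was 5.29 (SE 0.86), and 4.09 without CYGB-OE replicate 1.

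MMP12 encodes macrophage metalloelastase, which degrades elastin and is best known from macrophages. It had 76, 102 and 132 counts in CYGB-OE libraries 1 to 3, against 9, 11 and 9 in WT libraries 1 to 3. The normalized counts were 81.1, 114 and 120 in CYGB-OE (mean 105 ± 20.9, SD, n = 3) and 9.90, 8.69 and 9.57 in WT (mean 9.39 ± 0.622, SD, n = 3). The WT libraries were alike and each CYGB-OE library was at least 8.19 times the highest of them. Its log2 fold change, 3.47 (SE 0.28), was the lowest of the 4.

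**Figure D1:**
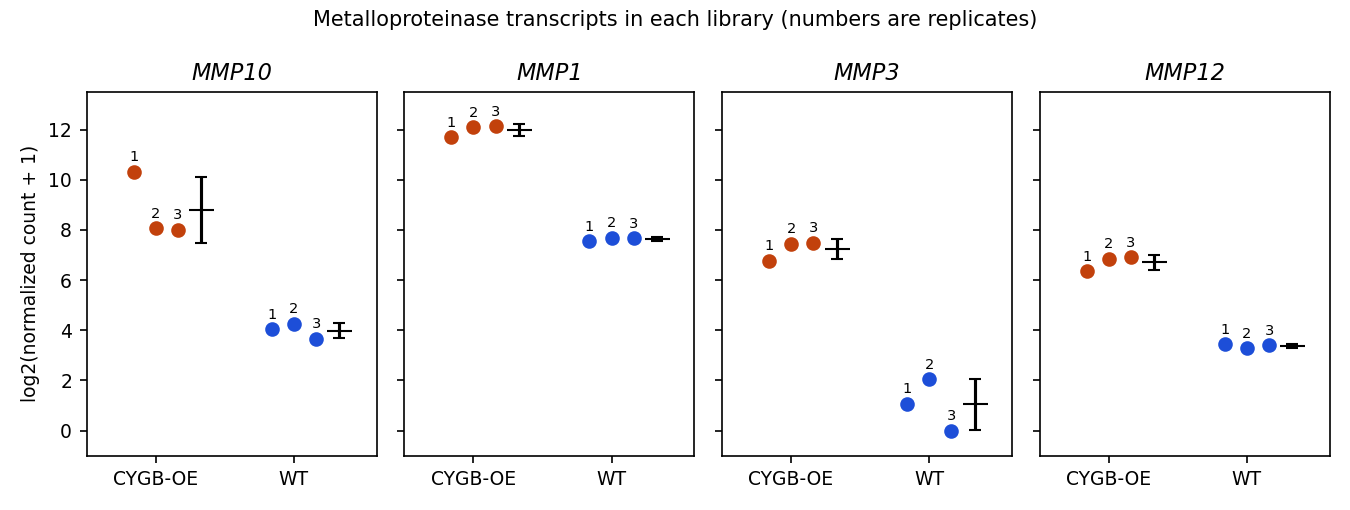
Normalized counts of MMP10, MMP1, MMP3 and MMP12 in each library, as log2(normalized count + 1), with CYGB-OE left of WT in each panel; points are libraries numbered by replicate, and black bars are the mean ± SD of the log2 values (n = 3). No panel has overlapping groups, and MMP10 alone has CYGB-OE replicate 1 at the top, at 1286 normalized counts against 267 and 258 in replicates 2 and 3.

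All 4 members passed the filter on low counts, and all 4 were past the threshold of the edgeR quasi-likelihood test in the higher direction, as were 28.9% of the 2468 features tested. All 4 also had every CYGB-OE library above every WT library, as did 28.3% of the 2778 features of the table, while 70.1% had every CYGB-OE library below every WT library. Because the members were chosen from this contrast, nothing is read from these shares. Their median log2 fold change was 4.82, beside 1.43 over the 713 features called higher and -1.29 over all tested. Ordered by fitted log2 fold change among the 2468 tested, MMP3 was at place 5, MMP10 at 10, MMP1 at 23 and MMP12 at 35.

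Levels were compared between the genes only per kilobase of annotated exon. In CYGB-OE, MMP1 averaged 2062 ± 333 normalized counts per kb, MMP10 343 ± 336, MMP3 75.1 ± 19.5 and MMP12 56.0 ± 11.2 (SD, n = 3 each). In WT, MMP1 averaged 101 ± 4.97, MMP10 8.58 ± 1.85, MMP12 5.01 ± 0.332 and MMP3 0.694 ± 0.784. MMP1 thus led in both groups and lay apart from the rest in every library. MMP3 lay above MMP12 in each CYGB-OE library and below it in each WT library. MMP10 lay between MMP1 and the other 2 in all 6 libraries, but in CYGB-OE its mean differed from those of MMP3 and MMP12 by less than the SDs combined. The CYGB-OE means of MMP3 and MMP12 also differed by less than their SDs combined.

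The summed level of the 4 members was nearly the same in the CYGB-OE libraries, at 2507, 2524 and 2578 normalized counts per kb in replicates 1 to 3, against 109, 120.5 and 115 in WT replicates 1 to 3. What differed between the CYGB-OE libraries was the make-up of that sum, which no scaling between libraries can alter. MMP10 made up 29.2% of it in CYGB-OE replicate 1, 6.02% in replicate 2 and 5.70% in replicate 3, against 8.0%, 8.55% and 5.80% in WT replicates 1 to 3. The MMP10 share in CYGB-OE replicates 2 and 3 therefore lay within or close to the WT range. MMP1 made up 67.0%, 88.2% and 88.4% in CYGB-OE replicates 1 to 3, against 86.7%, 86.3% and 89.8% in WT. MMP3 made up 2.10% to 3.39% in CYGB-OE and at most 1.28% in WT, while MMP12 made up 1.73% to 2.48% in CYGB-OE and 3.85% to 4.82% in WT.

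**Figure D2:**
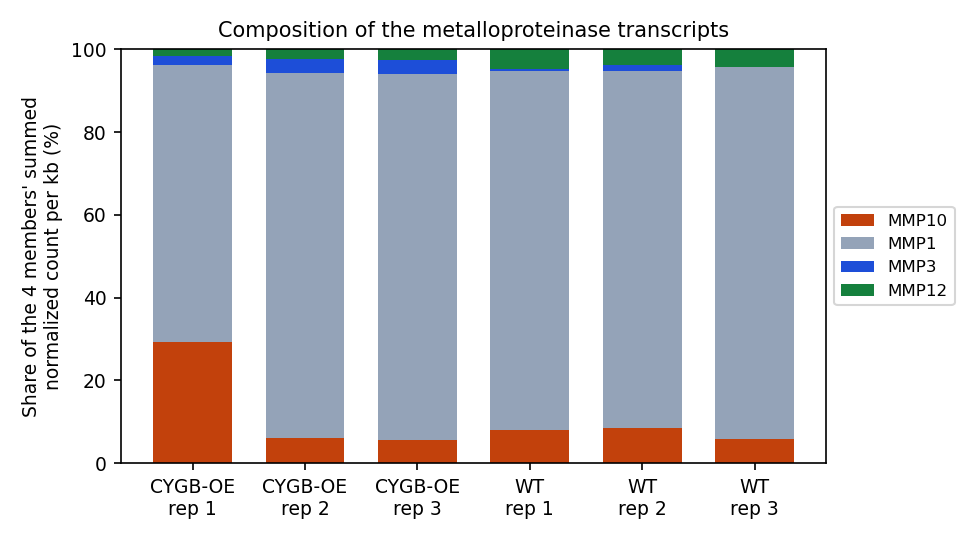
Share of each member in the summed normalized count per kb of the 4 members, in percent, for each CYGB-OE and WT library. MMP1 takes the largest share in all 6 bars, and the MMP10 share is 29.2% in CYGB-OE replicate 1, against 5.70% to 8.55% in the other libraries.

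CYGB-OE replicate 1 held the highest level of MMP10 and the lowest levels of the other 3 members. The log2 ratio of replicate 1 to the mean of replicates 2 and 3 was 2.29 for MMP10, against -0.42 for MMP1, -0.52 for MMP12 and -0.71 for MMP3. Over all 2468 tested features the median of this ratio was -0.03, with 5% below -1.27 and 5% above 1.28. MMP10 was among the 30 features at or above 2.29, while the other 3 members lay inside that range. Over the features called higher the median was 0.14, and 39.4% of them were below 0. The level of CYGB differed little between these libraries: its normalized counts were 24019.9, 23159.7 and 23871 in CYGB-OE replicates 1 to 3.

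**Figure D3:**
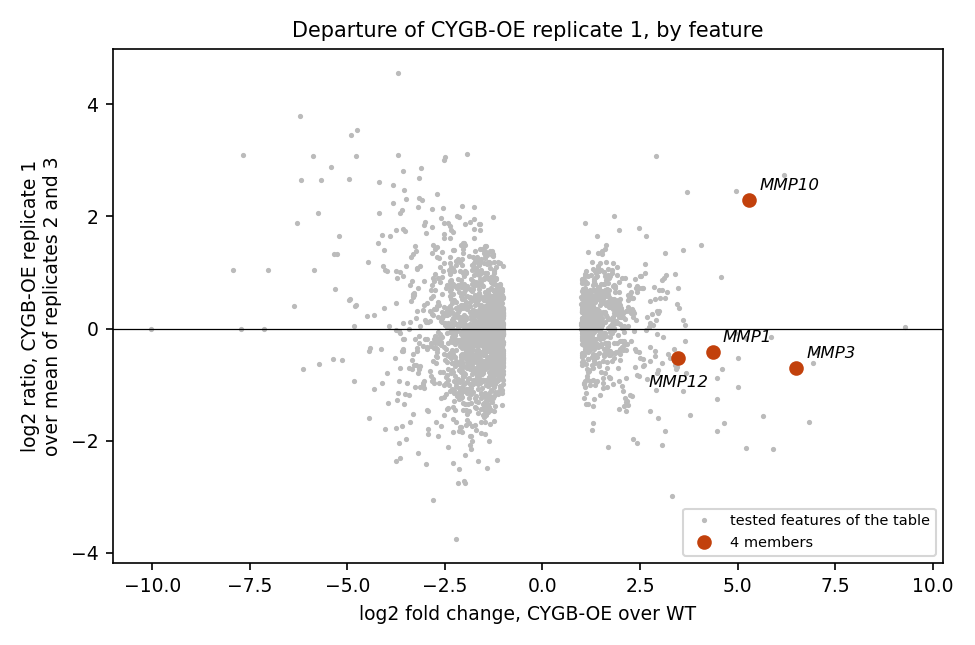
Log2 ratio of CYGB-OE replicate 1 to the mean of replicates 2 and 3 (vertical) against the log2 fold change of CYGB-OE over WT (horizontal) for the tested features, with the 4 members marked. MMP10 sits at 2.29 on the vertical axis and MMP1, MMP12 and MMP3 at -0.42, -0.52 and -0.71; the empty vertical band reflects the selection of the table.

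MMP3 and MMP10 have similar sequences, so a read could in part be counted for either. Of the 50-base windows of their longest coding transcripts, 3.45% of those of MMP10 and 3.0% of those of MMP3 occur in the other, with a longest shared run of 96 bases. No other pair of members shared a 25-base window. The sources used here give neither the read length nor the handling of reads with several matches. The part of shared reads in the levels of MMP3 and MMP10 was not tested.

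Within 1 Mb of the members, 50 genes are annotated, 19 of them protein-coding, and 7 are in the table: the 4 members, MMP13, WTAPP1 and the antisense RNA AP001830.1. Of 9 metalloproteinase genes in this window, the 5 in the table are adjacent in coordinate order, from MMP10 to MMP13. The genes outside the table, MMP7, MMP8, MMP20 and MMP27 among them, were not analysed here. Of 133 tested features of chromosome 11 as a whole, 35 were called higher (26.3%) and 98 lower.

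MMP13, which encodes collagenase 3, had few counts: 20, 18 and 33 in CYGB-OE replicates 1 to 3, against 6, 12 and 1 in WT replicates 1 to 3. It rose by a log2 fold change of 1.98 (SE 0.50; edgeR quasi-likelihood test, adjusted p = 0.0042), with the groups apart. The call was lost when adjusted over all 58780 annotated genes (adjusted p = 0.1), and the log2 fold change was 2.62 without WT replicate 2. WTAPP1 is a transcribed pseudogene on the opposite strand, at chr11:102746968-102836766, which spans MMP10 and MMP1 and the 3′ end of MMP3. It had 22, 32 and 30 counts in CYGB-OE replicates 1 to 3, against 6, 10 and 7 in WT replicates 1 to 3. Its log2 fold change was 1.95 (SE 0.32; edgeR adjusted p = 0.000409, or 0.00973 over all annotated genes). Its exons share 150 bases with MMP1, 32 with MMP3 and 0 with MMP10. The sources used here do not give the strand setting of the counting, so reads of WTAPP1 and of MMP1 cannot be told apart in those bases. AP001830.1 was lower, with a log2 fold change of -1.31 (edgeR adjusted p = 0.00576), a call that was lost when adjusted over all annotated genes (adjusted p = 0.137).

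**Figure D4:**
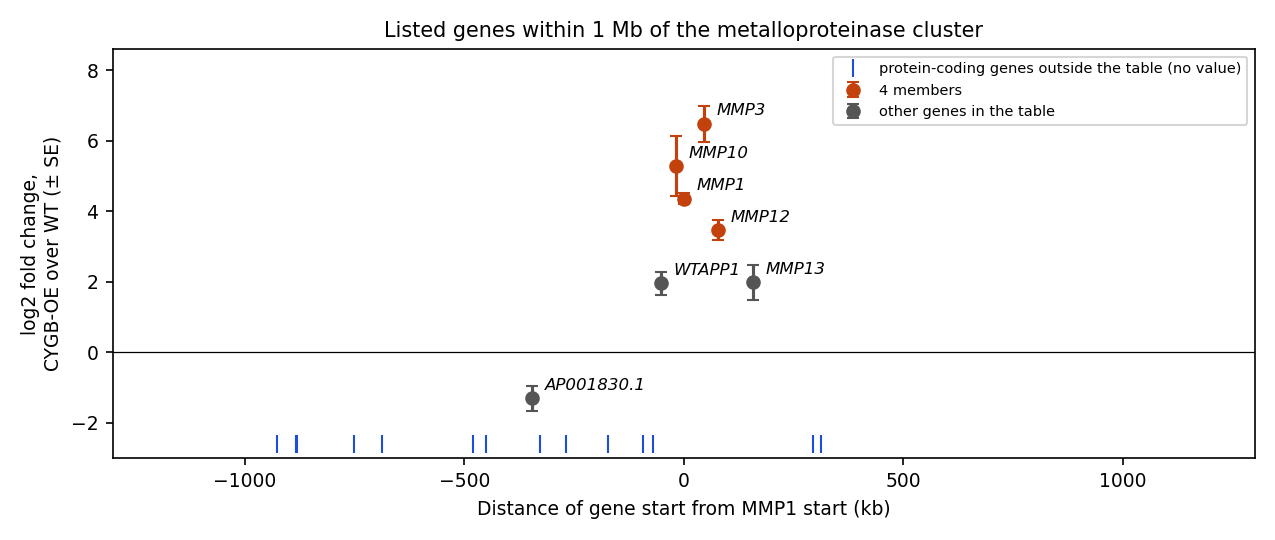
Log2 fold change of CYGB-OE over WT (± SE) for the genes of the table within 1 Mb of the 4 members, by the distance of each gene's start from the start of MMP1 in kb. The members lie between 3.47 and 6.49 and WTAPP1, which overlaps 3 of them, and MMP13 at 1.95 and 1.98; ticks along the bottom mark protein-coding genes with no value in the table.

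Genes with patterns close to each member were sought among named features with a mean normalized count of at least 50 over the 6 libraries. Genes with few WT counts could pass through CYGB-OE alone. NTS, COL1A2, AC004520.1 and CACNA1E, among others, did so, with WT means of 2.07, 1.76, 4.76 and 2.34. Likeness to members chosen from the same contrast is thus a description only. The measure was the root-mean-square (RMS) difference over the 6 libraries in log2(normalized count + 1), each gene centred on its WT mean. For MMP12 the nearest were MEGF10, MPP4 and LRRC17, at RMS differences of 0.159, 0.195 and 0.207. For MMP1 the nearest were LINC01819, MPP4 and AC004520.1, at 0.567, 0.596 and 0.601. AC004520.1 had 163, 92.7 and 78.2 normalized counts in CYGB-OE replicates 1 to 3, highest in replicate 1, where MMP1 was lowest. For MMP3 they were CACNA1E, UTS2 and COL1A2, at 0.771, 0.836 and 1.08. For MMP10 they were NTS, the neurotensin gene, AC004520.1 and DOK3, at 0.547, 0.761 and 0.822.

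NTS had 349, 46.9 and 55.4 normalized counts in CYGB-OE replicates 1 to 3, against 3.30, 0.79 and 2.13 in WT, with replicate 1 highest as for MMP10. COL1A2, a chain of type I collagen and thus of an MMP1 substrate, had 36.3, 155 and 173 in CYGB-OE replicates 1 to 3, against 0, 3.16 and 2.13 in WT. There CYGB-OE replicate 1 was lowest, as for MMP3; the log2 fold change of COL1A2 was 5.91, and 6.65 without WT replicate 2. Between members, the smallest RMS difference was 0.717, for MMP1 and MMP12, and the largest 2.12, for MMP3 and MMP12.

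Other genes of the pathway were read from 9 lists of 239 genes, of which 43 were in the table. The 39 tested comprised 11 called higher and 28 called lower, in a table where 28.9% of tested features were called higher and 70.9% lower (edgeR quasi-likelihood test, adjusted over all features tested). Genes absent from the table were not analysed here. None of the 8 listed inhibitors, such as the TIMP genes and RECK, and none of the 30 genes of the plasminogen system and proenzyme activation were in the table.

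Beyond the members, 3 of 19 listed metalloproteinases were in the table. MMP13 was called higher, as was MMP24, a membrane-type metalloproteinase, with a log2 fold change of 1.71; the MMP24 call was lost over all annotated genes (edgeR adjusted p = 0.068). MMP19 was called lower, with 58.7, 63.7 and 71.8 normalized counts in CYGB-OE, against 145, 149 and 123 in WT. Its log2 fold change of -1.10 turned to 0.10 under TMM over the table. Of 26 ADAM and ADAMTS proteases, 9 were tested, all of them ADAMTS genes; 4 were called higher and 5 lower, with a median log2 fold change of -1.06 beside -1.29 over all tested. ADAMTS4, an aggrecanase, averaged 246 ± 32.8 normalized counts in CYGB-OE and 78.7 ± 20.2 in WT (SD, n = 3 each), a log2 fold change of 1.63. The most abundant, ADAMTS12, ADAMTS7 and ADAMTS9, were called lower at -1.20, -1.10 and -1.60. None of these 3 calls was kept under TMM over the table, where ADAMTS7 was at 0.10 and ADAMTS9 at -0.40 and the edgeR adjusted p was 0.982 for ADAMTS12. The ADAMTS9 call was also lost over all annotated genes (edgeR adjusted p = 0.152), and its log2 fold change was -2.26 without CYGB-OE replicate 1.

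Of 36 genes of AP-1 and of the MAP kinase response, 2 were in the table, and both were called lower. JUNB, an AP-1 subunit, had 6134, 3292 and 3559 normalized counts in CYGB-OE replicates 1 to 3, against 10107, 19017 and 9476 in WT, a log2 fold change of -1.57. The call was lost over all annotated genes (edgeR adjusted p = 0.095) and under TMM over the table, where JUNB was at -0.38 (edgeR adjusted p = 0.449). PHLDA1, induced by the MAP kinase pathway, had a log2 fold change of -1.10, and 0.10 if scaled by TMM over the table. Of 27 ETS factors, 3 were in the table and 2 were tested, both called lower. ELF3, an epithelial ETS factor, had 33.1, 3.35 and 5.45 normalized counts in CYGB-OE replicates 1 to 3, against 1059, 1009 and 979 in WT. EHF, its relative, had 28.8, 6.70 and 7.27 in CYGB-OE, against 121, 123 and 97.8 in WT. Both were highest in replicate 1 of the CYGB-OE libraries; without it the log2 fold changes were -7.78 and -4.00, against -6.19 and -3.01 with it.

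Of 34 cytokines, growth factors and receptors that act on these genes, 7 were tested; 1 was called higher and 6 lower. IL1A, an inducer of MMP1 and MMP3 in fibroblasts, had 390.4, 55.8 and 67.3 normalized counts in CYGB-OE replicates 1 to 3, against 8959.5, 8462 and 8781 in WT, a log2 fold change of -5.68, and -7.14 without CYGB-OE replicate 1. IL1B, the gene of the related interleukin 1 beta, had 17.1, 2.23 and 0 in CYGB-OE, against 1299.9, 1226 and 1343 in WT. Both genes were lower in every CYGB-OE library than in any WT library, as were 70.1% of the 2778 features of the table. The part of interleukin 1 in the members' levels was not tested. LIF, a cytokine of the interleukin 6 family, had 3949, 1648 and 1583 in CYGB-OE, against 5857, 5829.7 and 5465 in WT, and its call was lost over all annotated genes (edgeR adjusted p = 0.263). Under TMM over the table LIF was at -0.05 (edgeR adjusted p = 0.917). AREG, the EGF receptor ligand amphiregulin, was the gene called higher, at 454, 257 and 291 in CYGB-OE, against 102, 94.1 and 81.8 in WT (log2 fold change 1.85, SE 0.24; edgeR adjusted p = 0.000116).

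Of 41 matrix substrates, 13 were tested; 2 were called higher and 11 lower, with a median log2 fold change of -1.26. The 2 were COL1A2 and ELN, the gene of elastin, which is the substrate that gave MMP12 its name of elastase. ELN had 25.6, 102 and 86.3 normalized counts in CYGB-OE replicates 1 to 3, against 8.80, 7.90 and 7.44 in WT. LAMA5, HSPG2, COL5A2 and COL18A1, the most abundant of the list, were called lower at log2 fold changes of -1.10, -1.46, -1.26 and -1.15. Under TMM over the table LAMA5 and COL18A1 turned to 0.10 and 0.06, and HSPG2 and COL5A2 were at -0.26 and -0.06, not called (edgeR adjusted p = 0.0558 and 0.813). Of the 11 substrates called lower, only ACAN and COL16A1 kept their calls under that scaling. They were at -2.10 and -0.45 there (edgeR adjusted p = 0.00183 and 0.0142). Of 18 receptors and surface partners, 3 were tested. F2RL1, the protease-activated receptor 2, was called higher at 950.4, 1249.5 and 1215 normalized counts in CYGB-OE, against 210, 249.8 and 199.8 in WT (log2 fold change 2.37, SE 0.15; edgeR adjusted p = 4.82e-06). ITGA2, the collagen-binding integrin chain to which MMP1 can bind, had 6631, 3426 and 3461 in CYGB-OE replicates 1 to 3, against 1848, 2081 and 2143 in WT. Its log2 fold change was 1.15, and 0.77 without CYGB-OE replicate 1. The ITGA2 call was lost over all annotated genes (edgeR adjusted p = 0.102). LRP1, a receptor that takes up proteases from the medium, was called lower at -1.10, and 0.10 if scaled by TMM over the table.

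**Figure D5:**
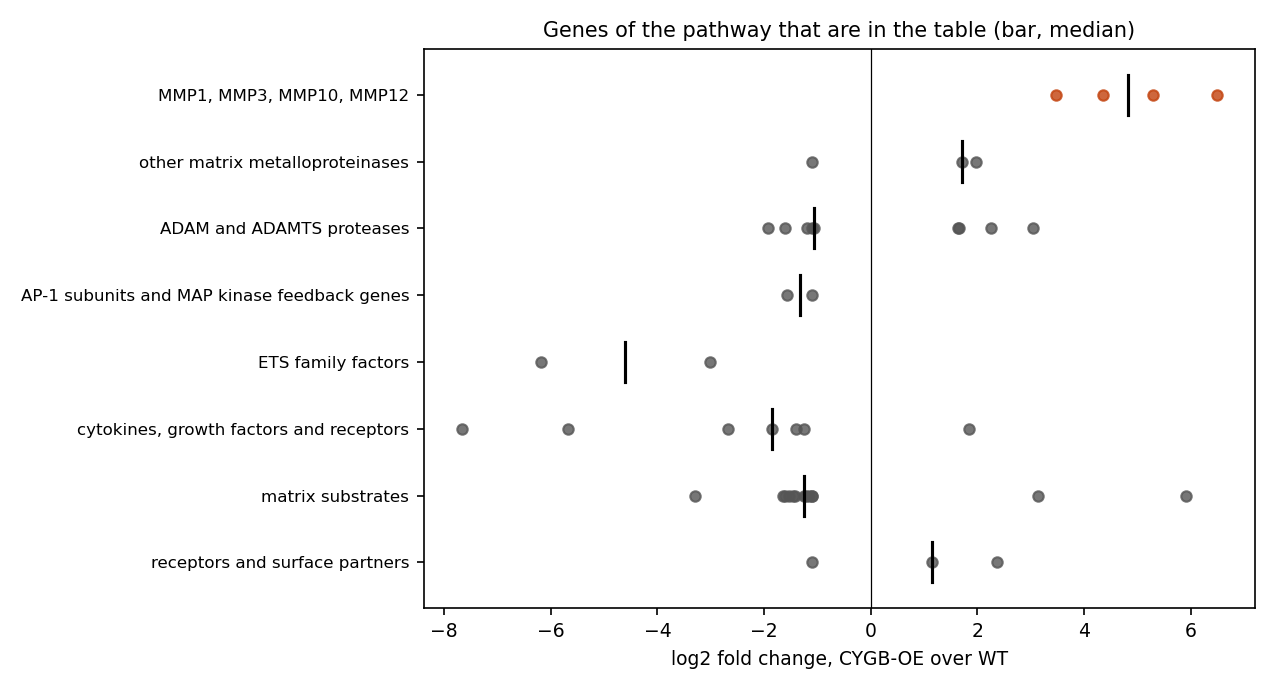
Log2 fold change of CYGB-OE over WT for the 4 members and for the tested genes of each pathway list; each point is a gene and each bar is a list median. The members lie between 3.47 and 6.49, and all tested features have a median of -1.29. List medians are 1.71 for other metalloproteinases (3 genes), 1.15 for receptors (3), -1.06 for ADAMTS proteases (9) and -1.26 for matrix substrates (13). They are -1.34 for AP-1 and MAP kinase response genes (2), -1.85 for cytokines (7) and -4.60 for ETS factors (2).

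Metalloproteinases of this cluster are also made by fibroblasts, macrophages and keratinocytes, so markers of those cells were read beside the members. Of 10 fibroblast markers, COL1A2 and COL3A1 were in the table, with a summed level of 38.4 to 193 normalized counts in CYGB-OE, against 1.1 to 3.95 in WT; COL1A2 was at 0 in WT replicate 1 and COL3A1 in WT replicate 3. Of 10 macrophage markers, ITGAM and MSR1 were in the table, at 130.4 to 173 in CYGB-OE, against 827 to 847 in WT, with ITGAM at 0 in CYGB-OE replicates 2 and 3. Of 10 keratinocyte markers, 3 were in the table, with a summed level of up to 483 in CYGB-OE, against 497 to 532 in WT. Most of the WT sum was DSC3, at means of 212 in CYGB-OE and 462 in WT. KRT14 and SFN were called higher, at means of 62.0 and 149 in CYGB-OE, against 16.6 and 35.8 in WT. DSC3 was called lower, its log2 fold change turning to 0.07 under TMM over the table. Of 10 endothelial markers, KDR, TIE1 and EGFL7 were in the table, at 229 to 317 in CYGB-OE, against 735 to 796 in WT. All 3 were called lower, as were 70.9% of the 2468 features tested. EGFL7 held most of both sums, at means of 259 in CYGB-OE and 580.2 in WT. Under that scaling EGFL7 turned to 0.04 and TIE1 was at -0.86, no longer called (edgeR adjusted p = 0.101). The part of other cell types in the members' levels was not tested. Of 10 melanocyte and melanoma markers, EDNRB, S100A1, TYRP1 and DCT were in the table. Most of their summed level was S100A1, at means of 2021 in CYGB-OE and 4361 in WT. The sums were 2507 to 2906 normalized counts in CYGB-OE, against 5918 to 6519 in WT, over these markers. The 3 tested were called lower, as were most features tested. None of these 3 calls was kept under TMM over the table, with S100A1 at 0.09, EDNRB at -0.30 and TYRP1 at -1.35. The TYRP1 call was also lost over all annotated genes (edgeR adjusted p = 0.0856). DCT was at 0 in all CYGB-OE libraries.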

How the data were processed

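RNA of A375 cells was measured in 6 libraries, 3 CYGB-OE and 3 WT. The submitters' processing notes name STAR 2.5.2b, Trimmomatic 0.36, Subread 1.5.2 and featureCounts, and the build GRCh38. The values that the authors deposited are named raw counts. The sources used here give neither the rule that selected the features nor the annotation or strand setting. Unnamed loci, 163 of 2778 features, held 1.25% to 1.64% of a library's counts. The total depth of the libraries is unknown.

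Counts were tested with edgeR 4.0.16 in R 4.3.3: quasi-likelihood F test, two-sided, filterByExpr with minimum count 10, group as the only term, and Benjamini-Hochberg adjustment over 2468 features with a threshold of 0.05. TMM factors were computed within each group. The level between groups was set at the middle of the empty band of log2 ratios of group means, which ran from -1.07 to 0.919. DESeq2 1.42.0 and limma 3.58.1 (voom) were alternatives. All were also run on simulated counts with TMM scaling and few, balanced changes. Those counts are unlike this table, so that run does not test the calls given here. A call from a table selected on these libraries is not independent evidence, so calls adjusted over the 58780 genes of GENCODE 29 are given where they change. Gene positions, exon lengths and transcripts are from GENCODE 29 and the promoter from RefSeq. Intervals and limits from a count of 0 cover counting error only.

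The members and the gene lists were chosen with earlier results of these data known. Named genes were the members, CYGB, table features within 1 Mb, the 3 genes most alike per member, and up to 4 genes per list by abundance and then fold. ELN, ACAN, COL16A1 and the marker genes fall outside that rule and were named after their values were seen.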

Additional observations from a re-analysis of the deposited data

How the results depend on the processing

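All 4 members stayed higher in CYGB-OE under each of the 14 alternatives run. Other scalings shifted every log2 fold change upwards: by 1.2 with TMM over the table, 1.207 with DESeq2 size factors, 0.864 with upper quartiles and 0.345 with column totals. Under these, in that order, MMP1 was at 5.55, 5.56, 5.22 and 4.70 and MMP12 at 4.67, 4.67, 4.33 and 3.82; MMP3 was at 7.65 under the first and the second. Leaving out each library in turn gave 4.28 to 4.48 for MMP1, 6.0 to 7.84 for MMP3 (highest without WT replicate 2), 4.09 to 5.66 for MMP10 and 3.37 to 3.63 for MMP12. Counts of calls, 713 higher and 1749 lower, had 480, 476 and 910 lower under TMM over the table, DESeq2 size factors and upper-quartile factors, and 479 higher and 1340 lower when adjusted over all annotated genes. Leaving out a library gave 708 to 751 higher and 1761 to 1840 lower. Of the 28 pathway genes called lower, TMM over the table left 8 calls. Deviations from group means showed no sign of pairing by replicate number: same-numbered libraries had correlations of -0.013, -0.069 and 0. With 3 libraries per group and CYGB-OE replicate 1 unlike its fellows, these values cannot decide whether libraries were paired. A fit with replicate block gave 712 higher and 1750 lower, and log2 fold changes of 4.34 for MMP1, 6.54 for MMP3, 4.92 for MMP10 and 3.46 for MMP12. Low WT counts limit MMP3, and the unknown depth limits any statement on genes outside the table.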

Other observations

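The AP-1 motif TGANTCA, found in the MMP10 promoter window, occurred in 10.4% of the 508 RefSeq promoters that matched features called higher in CYGB-OE, in 6.62% of the 1480 that matched features called lower, and in 7.71% of all 35116. The TATA box TATAAA occurred in 9.06% of the promoters of higher features and in 5.95% of those of lower features. These are descriptions with no test.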
